A study of Mus musculus with 6 samples.

Results

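Immediate early response genes are the first genes to be transcribed when a cell receives a growth or stress signal, and their induction needs no new protein synthesis. The 10 genes described here were chosen by name: Fos, Fosb, Jun, Junb and Jund, which encode subunits of the transcription factor AP-1; Egr1 and Egr2, which encode zinc finger transcription factors; Atf3, which encodes a stress-induced bZIP factor; Ier2, which encodes a nuclear protein; and Btg2, which encodes an antiproliferative protein that acts with the CCR4-NOT deadenylase complex. They are 10 of 27706 protein-coding and lincRNA genes in the annotation, and each was described by the H3K27ac peaks at its promoter, in its gene body and within 50 kb of its transcription start site (TSS). The rule uses no measured value, but the genes were proposed with earlier results of these data known.

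Chromatin came from E14 mouse embryonic stem cells (mESCs), labelled E14Tg2A Rosa26-Cre Oct4-IRES-Puro and grown in serum-free N2B27 medium with LIF, the MEK inhibitor PD0325901 and the GSK3 inhibitor CT-99021. H3K27ac, an acetylation of histone H3 found at active promoters and enhancers, was measured by ChIP-seq with 2 samples in each of 3 groups: control cells given DMSO, cells given 100 nM NVP-2, an inhibitor of the elongation kinase CDK9, and cells given actinomycin D (800 nM), which binds DNA and blocks transcription, both for 2 h. Chromatin of the human HEK293T line was added to every sample as a spike-in. The values below come from 22973 peaks that the authors list for control cells, 1 set for both control samples together, so they show where control cells carried the mark, and the treated cells were not analysed here. A peak is given there only by its start and end, with no height. There is therefore no replicate error, no test was possible, the list does not give the depth behind a peak, and the width, in base pairs (bp), is the only quantity it gives for each peak.

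Immediate early genes are known for promoters that hold paused RNA polymerase II close to the TSS, from which CDK9 activity releases it. The signal reaches many of them through a MAP kinase cascade that ends in the phosphorylation of ternary complex factors bound together with SRF at a sequence called the CArG box, and through CREB, which binds the cAMP response element TGACGTCA or its shorter form TGACG. MEK, which one of the inhibitors in the culture medium blocks, is a kinase of that cascade. Pausing and transcription were not measured in the data used here.

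A promoter was called marked when a peak overlapped the window of 1 kb on either side of the TSS of any annotated isoform by at least 1 bp. Peaks marked the promoters of 7 of the 10 genes (70.0%), beside 43.6% of all 27706 genes and 51.0% of the 21853 protein-coding genes. The marked genes were Fos, Jun, Jund, Egr1, Atf3, Ier2 and Btg2. Fosb, Junb and Egr2 had no peak at any of their annotated TSSs. The division ran through the gene families, since the FOS, JUN and EGR families each held a marked and an unmarked gene.

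The promoter sequences of a marked and an unmarked gene of the FOS family are shown first, because both carry the CArG box through which serum and MAP kinase signals are known to act while control cells had a peak at only one of them. Each sequence is written 5′ to 3′ on the strand of the gene and runs from 320 to 21 bases before the reference TSS in GRCm38 (mm10), and capitals mark matches on either strand to the CArG box, to TGACG, to the SP1 site GGGCGG, to the CCAAT box and to the TATA box, spelled TATAAA. The Fos stretch is chr12:85473570-85473869 (+) and the Fosb stretch is chr7:19310072-19310371 (−).
Fos: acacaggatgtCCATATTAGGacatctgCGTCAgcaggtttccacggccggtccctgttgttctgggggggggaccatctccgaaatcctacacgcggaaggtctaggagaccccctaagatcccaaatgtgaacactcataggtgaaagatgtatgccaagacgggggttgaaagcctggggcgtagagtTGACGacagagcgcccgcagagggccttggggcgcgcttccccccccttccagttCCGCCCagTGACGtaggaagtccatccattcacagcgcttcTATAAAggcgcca
Fosb: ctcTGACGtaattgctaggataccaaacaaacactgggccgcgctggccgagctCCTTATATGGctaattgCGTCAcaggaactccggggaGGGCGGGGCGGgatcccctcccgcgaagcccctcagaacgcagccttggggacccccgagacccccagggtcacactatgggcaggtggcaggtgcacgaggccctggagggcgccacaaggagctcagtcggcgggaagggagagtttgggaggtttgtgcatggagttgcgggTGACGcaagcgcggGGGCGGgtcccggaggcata
The CArG box of Fos begins 309 bases before its TSS and reads CCATATTAGG, and that of Fosb begins 266 bases before its TSS and reads CCTTATATGG. A TGACG match on the opposite strand follows in both genes, 17 bases further on, beginning at 292 bases in Fos and at 249 bases in Fosb. Fos has a TATAAA match 33 bases before its TSS, and Fosb has none in this stretch.

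Fos (ENSMUSG00000021250.13) lies at chr12:85473890-85477273 on the plus strand, spans 3.38 kb in 4 exons and has a single annotated TSS. One peak of 2558 bp, chr12:85471931-85474488, covered that TSS. It reached 1.96 kb upstream and 0.598 kb downstream, so 76.6% of its width lay before the gene and only 17.7% of the gene body was covered. Its width stood at percentile 53.9 of the 12071 genes with a marked promoter, where the percentile is the share of genes with a narrower peak. Upstream lay a broad intergenic peak of 7697 bp, from 23.8 to 16.1 kb before the TSS, and a narrower one of 1756 bp, 44.2 to 42.5 kb before it, in the lincRNA gene Gm40477. No peak lay in the 49933 bp after the end of the promoter peak. The upstream peak was thus wider than the peak at the Fos promoter itself.

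Fosb (ENSMUSG00000003545.3) lies at chr7:19302696-19310051 on the minus strand, spans 7.36 kb in 4 exons and has 3 annotated TSSs, none of them marked, and no peak in its gene body. The nearest peak was a small one of 607 bp at the promoter of the lincRNA gene Gm26802, 8.77 kb downstream of the reference TSS. The surroundings were nevertheless rich in peaks. There were 5 within 50 kb of Fosb, as many as around Btg2 and more than around the other 8 genes, and together they covered 21.2 kb of the 100 kb window, at percentile 89.3 of all genes. These peaks lay at promoters of other genes, except for 1 in the gene bodies of Opa3 and Vasp 47.7 to 54.3 kb downstream. Vasp, which encodes an actin regulator, had a promoter peak of 8413 bp, and the DNA repair gene Ercc1 shared one of 4494 bp with D830036C21Rik. The widest of the 5, of 11078 bp, lay at the promoters of Cd3eap and Ppp1r13l, 55.7 to 44.7 kb upstream. Of the 8 other genes with their reference TSS within 50 kb, here called neighbours, 5 were marked, and 3 (Gm44698, Rtn2 and Ppm1n) were not.

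Jun (ENSMUSG00000052684.4) is a gene of 3.19 kb in a single exon at chr4:95049034-95052222 on the minus strand. A peak of 3800 bp, chr4:95050165-95053964, lay almost evenly about its TSS, with 1.74 kb upstream and 2.06 kb downstream, and covered 64.5% of the gene. It was the only peak within 50 kb. The nearest peaks on its flanks lay beyond gaps of 70407 bp and 52040 bp. The only other reference TSS in that window, of the lincRNA gene 4930551L18Rik, was unmarked. The promoter peak of Jun, at percentile 66.7 of width, was thus all of the H3K27ac listed in the 100 kb around it. Egr2 was the only other gene of the 10 with a single peak in that window.

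Jund (ENSMUSG00000071076.6), also of a single exon, lies at chr8:70698949-70700616 on the plus strand and is 1.67 kb long. Its promoter peak of 11113 bp, chr8:70690628-70701740, stood at percentile 89.9 of width and covered the whole gene, reaching 8.32 kb upstream and 2.79 kb downstream of the TSS. Upstream, 3 further peaks followed within 50 kb: one of 11817 bp at the promoter of Lsm4, an intergenic one of 2372 bp, and one of 25915 bp at the promoter of Pgpep1, the widest of all peaks near the 10 genes. Downstream none followed, and the next one lay 51330 bp past the end of the promoter peak. The 4 peaks covered 37.7 kb of the window, at percentile 96.9 of all genes. Gaps of 7914, 3452 and 3699 bp separated these peaks. The marked neighbours Lsm4 and Pgpep1 thus lay upstream, and the downstream neighbours Iqcn, Gm3336 and Pde4c were unmarked.

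Junb (ENSMUSG00000052837.6), the remaining JUN gene, lies at chr8:84974484-84978718 on the minus strand, spans 4.24 kb in 1 exon and had no peak at its single TSS or in its body. The nearest peak, of 6093 bp, began 8.14 kb downstream, and covered the promoters of Prdx2, a peroxiredoxin gene, Rnaseh2a and Gm49661. Peaks in the bodies of Rtbdn (1484 bp) and Hook2 (1457 bp) and a peak of 9971 bp at the promoters of Asna1 and Trir completed the 4 within 50 kb, which covered 18.0 kb, at percentile 86.3 of all genes. Of its 9 neighbours, 5 were marked. The 3 JUN genes thus differed at the promoter from no peak (Junb) over 3800 bp (Jun) to 11113 bp (Jund), and the order of their surroundings was another, with 3.80 kb covered within 50 kb of Jun, 18.0 kb of Junb and 37.7 kb of Jund.

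**Figure D1:**
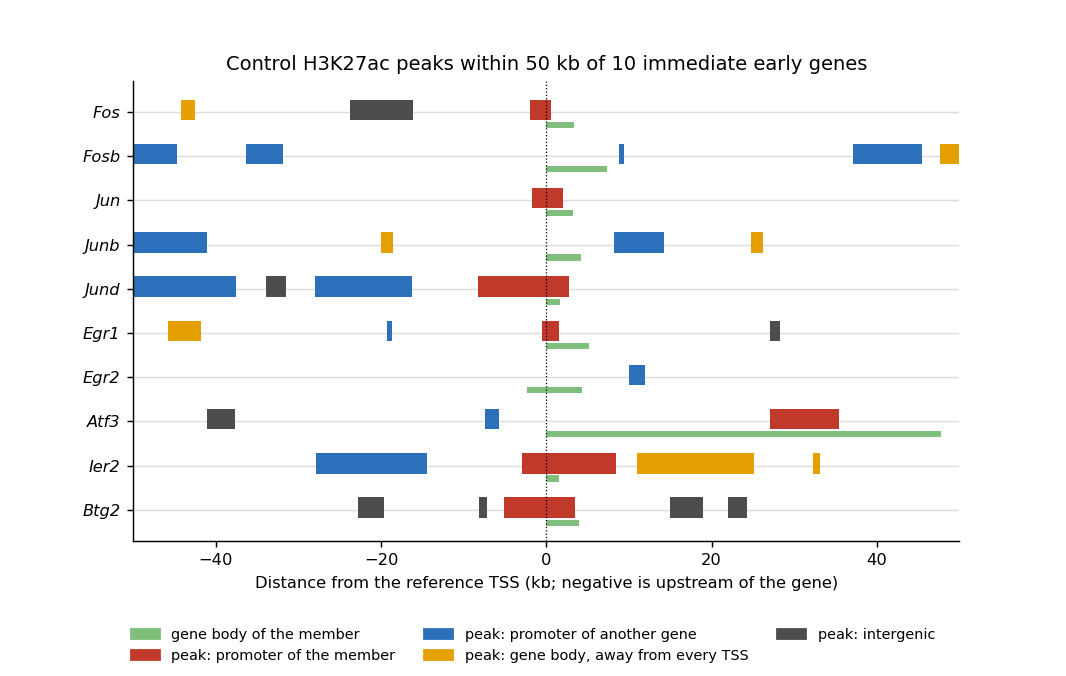
H3K27ac peaks of control mESCs within 50 kb of the reference TSS of each of the 10 genes (x axis, distance in kb along the direction of transcription; 1 line per gene), with peaks coloured by where they lie and gene bodies in green; peaks that run past 50 kb are cut off at the edge. A red promoter peak is missing at Fosb, Junb and Egr2, and the red peak of Atf3 lies inside the gene, 27041 to 35448 bp downstream of its reference TSS.

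Egr1 (ENSMUSG00000038418.7) encodes a zinc finger factor that binds GC-rich sites and is one of the best known targets of MAP kinase signalling. It lies at chr18:34859823-34864984 on the plus strand and spans 5.16 kb in 2 exons. A peak of 2027 bp, chr18:34859277-34861303, marked both of its TSSs, which lie 1384 bp apart. It was the narrowest promoter peak of the 7 marked genes, at percentile 45.5 of width, and covered 28.7% of the gene body. Its position differed with the TSS: it reached 0.546 kb upstream and 1.48 kb downstream of the first TSS, but 1.93 kb upstream and 0.096 kb downstream of the second one. Seen from the second TSS, 95.2% of the peak lay upstream. Within 50 kb there were a peak of 4062 bp in the body of Kdm3b, which encodes a histone demethylase, a peak of 560 bp at the promoter of Reep2 and an intergenic peak of 1281 bp beginning 27018 bp downstream of the first TSS. The 4 peaks covered 7.93 kb.

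Egr2 (ENSMUSG00000037868.15), a regulator of hindbrain segmentation and myelination, lies at chr10:67535475-67542188 on the plus strand and spans 6.71 kb in 2 exons of its reference isoform. None of its 6 TSSs was marked, and its body held no peak. The only peak within 50 kb, of 1940 bp, lay at the promoter of Ado 10.0 kb downstream, and covered 1.94 kb, at percentile 44.3 of all genes. The gap without a peak upstream of it, which holds the whole Egr2 gene, was 259306 bp long. Egr2 thus differed from Fosb and Junb, whose promoters also lacked a peak, in having few peaks around it.

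Even so, the nearest peaks of Fosb (8.77 kb), Junb (8.14 kb) and Egr2 (10.0 kb) were close beside those of the 10704 protein-coding genes with unmarked promoters, for which the median distance was 64.4 kb (quartiles 20.8 and 197 kb). Each of the 3 lay nearer to a peak than most of these genes, at percentiles 11.4, 10.5 and 13.2 of distance. At Egr2 and Junb that nearest peak belonged to the promoter of another protein-coding gene.

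The sequences before the TSS of Junb and Egr2 are shown next, since control cells had no peak at either and both hold TGACG and CCAAT matches like several of the marked genes. They run over the same bases as those of Fos and Fosb above, with the same capitals, from chr8:84978739-84979038 (−) for Junb and chr10:67537549-67537848 (+) for Egr2.
Junb: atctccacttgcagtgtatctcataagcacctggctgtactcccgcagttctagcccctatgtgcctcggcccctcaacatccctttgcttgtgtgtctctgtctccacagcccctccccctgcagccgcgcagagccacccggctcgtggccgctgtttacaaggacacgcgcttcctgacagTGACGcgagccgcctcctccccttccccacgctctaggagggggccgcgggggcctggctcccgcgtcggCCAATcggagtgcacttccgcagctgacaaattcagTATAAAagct
Egr2: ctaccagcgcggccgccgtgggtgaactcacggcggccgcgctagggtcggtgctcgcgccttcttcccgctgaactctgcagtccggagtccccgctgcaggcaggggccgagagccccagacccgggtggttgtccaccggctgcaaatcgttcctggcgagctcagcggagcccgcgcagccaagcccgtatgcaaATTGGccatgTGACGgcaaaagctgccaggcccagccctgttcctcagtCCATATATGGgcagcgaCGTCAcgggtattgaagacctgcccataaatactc
Junb has a TATAAA match 30 bases before its TSS and a CCAAT match at 66 bases, but no CArG box. The CArG box in this stretch of Egr2, CCATATATGG, begins 72 bases before its TSS. It is followed by TGACG on the opposite strand at 55 bases, the same 17 bases apart as in Fos and in Fosb. Another CArG box of Egr2 begins at 375 bases, before the printed stretch.

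Atf3 (ENSMUSG00000026628.13) encodes a bZIP factor that can pair with JUN proteins and is induced by many kinds of stress. It is by far the longest of the 10 genes, 47.7 kb in 4 exons of its reference isoform at chr1:191170296-191218039 on the minus strand, and has 2 TSSs. The TSS of the long isoform Atf3-203 at 191218039, the reference, was unmarked, and its nearest peak, of 1734 bp at the promoter of the lincRNA gene D730003I15Rik, lay 5.75 kb upstream. The TSS of the short isoform Atf3-201 at 191183340, 34699 bp further downstream, lay in a peak of 8408 bp, chr1:191182591-191190998. That peak reached 7.66 kb upstream of the marked TSS and 0.749 kb downstream, so 91.1% of it lay before the short isoform and within the long one. Its width stood at percentile 85.4. Atf3 was the only one of the 10 genes with both a marked and an unmarked TSS, and the only one whose call changed with the choice of isoform: the longest isoform alone left it unmarked and the count at 6 of 10.

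Ier2 (ENSMUSG00000053560.4), of 1.52 kb in a single exon at chr8:84661331-84662852 on the minus strand, had the widest promoter peak of the 10 genes. The peak, chr8:84654467-84665813, measured 11347 bp, at percentile 90.1, and also covered the promoter of the lincRNA gene Gm26664, whose TSS lies 2.28 kb upstream. It reached 2.96 kb upstream but 8.38 kb downstream of the Ier2 TSS, several times the length of the gene, and so 100% of the gene body was covered. Downstream it was followed after a gap of 2567 bp by a peak of 14213 bp in the body of Cacna1a, a calcium channel gene, and then by one of 798 bp in the same gene. Upstream, a peak of 13345 bp covered the promoters of Nacc1 and Trmt1. Peaks covered 39.7 kb of the 100 kb around Ier2, at percentile 97.4 of all genes and the highest of the 10.

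Btg2 (ENSMUSG00000020423.6) lies at chr1:134075170-134079120 on the minus strand and spans 3.95 kb in 2 exons. Its promoter peak of 8652 bp, chr1:134075641-134084292, at percentile 86.0 of width, reached 5.17 kb upstream and 3.48 kb downstream of its single TSS and covered 88.1% of the gene body. All 4 other peaks within 50 kb were intergenic, at 22.8 to 19.6 kb and 8.12 to 7.19 kb upstream and 15.0 to 19.0 kb and 21.9 to 24.3 kb downstream, and they measured 3216, 935, 3996 and 2306 bp. Such a number of peaks away from every TSS was the highest of the 10 genes and exceeded that of 97.1% of all genes. Its 2 neighbours, Fmod and Chit1, were unmarked, and so every peak within 50 kb of Btg2 lay at Btg2 itself or outside genes. A gap of 2013 bp separated the promoter peak from the next one upstream. The authors merged peaks closer than 2 kb, and the smallest gap in the list is 2001 bp, so the width given for Btg2 depends on that rule.

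**Figure D2:**
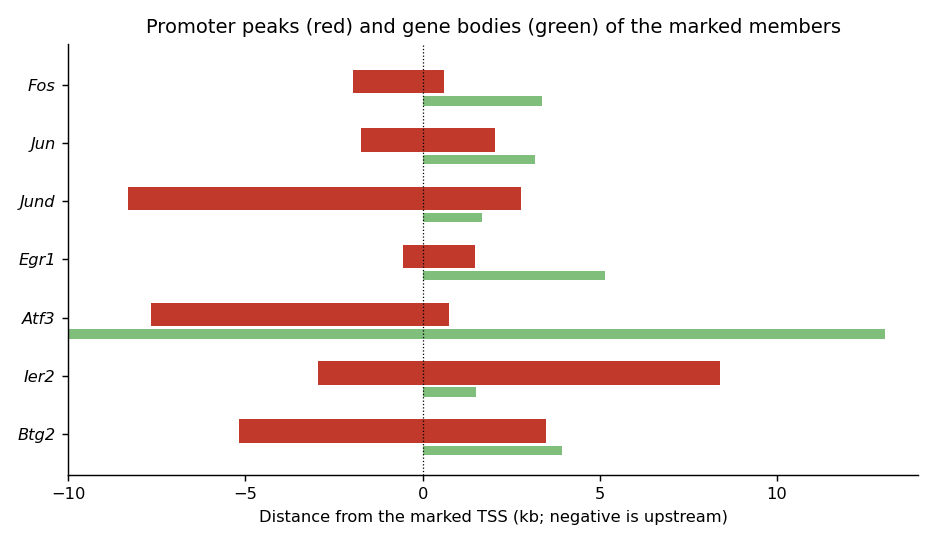
Promoter peaks (red) and gene bodies (green) of the 7 genes with a marked promoter, in kb from the marked TSS along the direction of transcription (for Egr1 from the first of its TSSs); the body of Atf3 runs past the left edge. The peaks of Jund and Ier2 cover the whole gene, whereas those of Fos and Egr1 end within it.

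The widths of the promoter peaks of these 7 genes left a gap between narrower and wider ones. Egr1, Fos and Jun had peaks of 2027, 2558 and 3800 bp, and Atf3, Btg2, Jund and Ier2 had peaks of 8408, 8652, 11113 and 11347 bp. Other immediate early genes, described below, had widths inside that gap, such as 4211 and 6616 bp, so it does not show 2 kinds of peak. The median was 8408 bp (n = 7), beside 2297 bp (quartiles 1579.5 and 5184 bp) over the 12071 genes with a marked promoter. The 4 wider peaks thus all exceeded the upper quartile, and the 3 narrower ones lay between the quartiles. Since peaks within 2 kb were merged, a wide peak can stand for several adjoining ones.

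**Figure D3:**
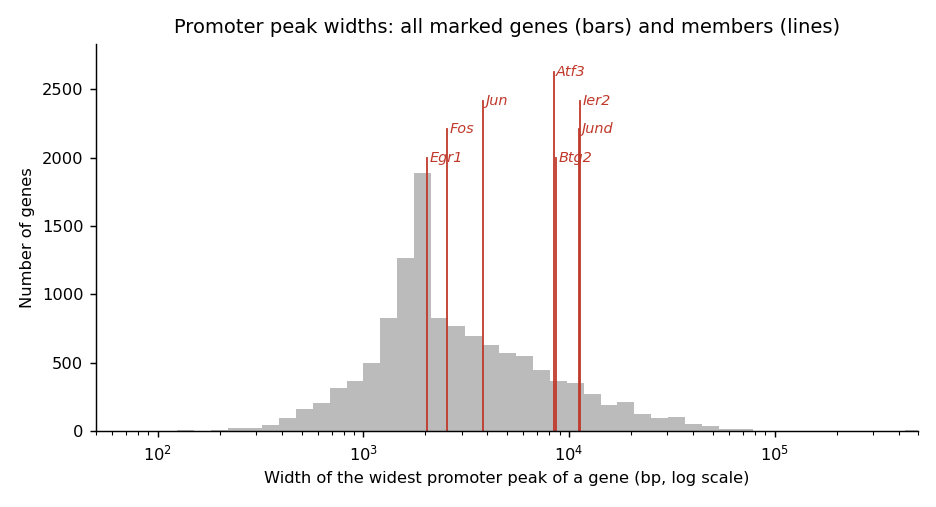
Width of the widest promoter peak (x axis, bp, log scale) of the 12071 genes with a marked promoter (bars, number of genes per bin) and of the 7 marked immediate early genes (red lines). Egr1, Fos and Jun lie near the bulk of the genes, and Atf3, Btg2, Jund and Ier2 lie on the right-hand slope.

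Peaks in gene bodies followed the promoter peaks. A peak overlapped the body of 7 of the 10 genes, the same 7 that were marked, beside 48.3% of all genes. In each of the 7 the overlap came from the promoter peak alone, and of all 12071 genes with a marked promoter 11914 had a peak in the body, so the count adds nothing to that of marked promoters. In 6 of them, all but Fos, the peak also covered bases of the body outside the first 1 kb after every TSS. The genes are short, with a median length of 4.09 kb beside 14.4 kb over all genes, and 4 of the 10 (40.0%) have a single exon, beside 6.53% of all genes. The share of the body covered ranged from 17.6% in Atf3 and 17.7% in Fos to 100% in Jund and Ier2.

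In all, 34 peaks lay within 50 kb of the 10 reference TSSs, a median of 4 per gene, beside 1 over all genes and 3 over genes with a marked promoter. Each of the 10 genes had at least 1, while 32.7% of all genes and 0.497% of those with a marked promoter had none. Of the 34 peaks, 7 lay at the promoters of the 10 genes themselves, 12 at promoters of other genes, 7 in gene bodies away from every TSS and 8 between genes. The length covered by peaks had a median of 15.8 kb, beside 2.87 kb over all genes and 8.80 kb over genes with a marked promoter. It ranged from 1.94 kb around Egr2 and 3.80 kb around Jun to 37.7 kb around Jund and 39.7 kb around Ier2. The peaks at promoters of other genes take part in these numbers. Of the 37 neighbours, counted by 1 reference TSS per gene, 18 were marked, beside 43.6% of all genes. The marked ones were 11 of 21 around the 3 unmarked genes and 7 of 16 around the 7 marked genes. The median number of neighbours was 3 over the 10 genes and 8 over the 3 unmarked ones, beside 2 over all genes.

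Peaks away from every TSS, where enhancers are commonly found, lay within 50 kb of 8 of the 10 genes, beside 41.4% of all genes and 58.4% of those with a marked promoter, and Jun and Egr2 had none. These 15 peaks had a median width of 2372 bp (798 to 14213 bp), beside 2043 bp over all 12195 such peaks in the list. They lay on both sides of the genes, 8 upstream and 7 downstream. Btg2 had 4 of them, Fos, Junb, Egr1 and Ier2 had 2 each, and Fosb, Jund and Atf3 had 1 each. The list does not connect a peak with the gene it acts on, and 7 of the 15 lay in the bodies of other genes, Gm40477, Opa3 and Vasp, Rtbdn, Hook2, Kdm3b and Cacna1a.

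Base composition did not separate the marked from the unmarked genes among the 10. In the window from 500 bases before to 100 after the reference TSS, the median GC content was 60.6% over the 10 genes, beside 51.2% over all genes. The CpG ratio, the number of CpG dinucleotides over that expected from the C and G content, had a median of 0.72, beside 0.70 over genes with a marked promoter and 0.22 over those without. The 3 unmarked genes had ratios of 0.75 (Fosb), 0.61 (Junb) and 0.83 (Egr2), within the range of the 7 marked genes, from 0.30 (Atf3) and 0.49 (Egr1) to 0.86 (Jund). Both low values belong to genes with a second TSS. The window at the marked TSS of Atf3 had a ratio of 0.67 and that at the second TSS of Egr1 a ratio of 0.80. Measured against the 10697 protein-coding genes without a marked promoter, the ratios of Fosb, Junb and Egr2 stood at percentiles 93.4, 85.4 and 96.5.

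**Figure D4:**
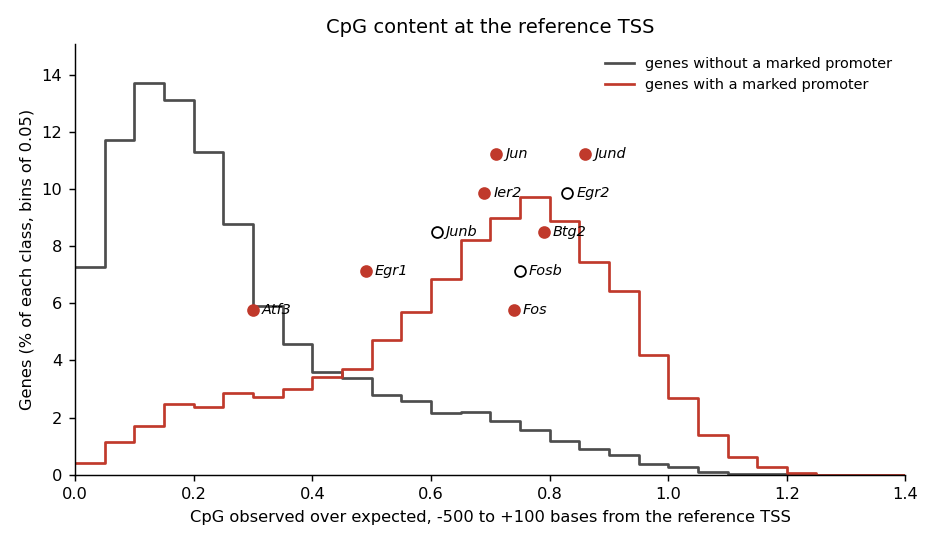
CpG ratio in the window from 500 bases before to 100 after the reference TSS (x axis) for genes with a marked promoter (red line) and without (grey line), in percent of each class per bin; points show the 10 genes, filled where marked and open where not, and their height has no meaning. The open points of Junb (0.61), Fosb (0.75) and Egr2 (0.83) lie above the median of genes without a marked promoter (0.22), and Junb lies below the median of those with one (0.70).

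The regulatory motifs were searched in the same windows on both strands, and a match shows only that the letters are present. The CArG box was found in 3 of the 10 (Fos, Fosb and Egr2), beside 2.96% of all 27691 windows and 2.49% of those of genes with a marked promoter. Of these 3 genes, only Fos was marked. The window at the second TSS of Egr1, which is not its reference TSS, held 5 further CArG boxes, and the window at its first TSS held none. The spacing seen in the printed sequences was searched for in every window after it had been noticed, as a CArG box followed after 7 bases by TGACG on the opposite strand, in either direction. It was found in 6 of all 27691 windows (0.0217%) and in 6 of the 819 with a CArG box. The 6 genes were Fos, Fosb, Egr2, Egr3, Dusp5 and Sik3, of which Fos and Sik3 were marked. The second TSS of Egr1, which is not among these windows, had it as well, with the CArG box 83 bases and TGACG 66 bases before it. Fos, Fosb and Egr2 gave the spacing that was searched for, so they had to be found, and the search added Egr3, Dusp5 and Sik3.

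The full cAMP response element TGACGTCA was found in Jund, Ier2 and Btg2, beside 2.51% of all windows and 3.85% of those of genes with a marked promoter, and all 3 were marked. The short form TGACG, which lies within TGACGTCA, was found in 10 of 10, beside 30.9% of all windows and 43.2% of those of marked genes.

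GGGCGG was found in 8 of the 10 windows, all but those of Junb and of Atf3 at its reference TSS, beside 44.2% of all windows and 71.0% of those of marked genes. CCAAT was found in 6 windows, beside 58.4% of all windows and 55.0% of those of marked genes. TATAAA was found in the windows of Fos and Junb, beside 26.7% and 16.5%. GCGNGGGCG, the site of the EGR proteins themselves, was found in 4 windows (Fosb, Jun, Jund and Btg2), beside 8.29% and 14.3%. It overlaps GGGCGG where a G follows it. The AP-1 site TGANTCA was found only in Fos, 462 bases before its TSS, beside 14.2% of all windows and 10.2% of those of marked genes. CCGGAAG, 1 form of the site of ETS factors, was found in none of the 10 reference windows, beside 12.4% and 22.8%. The window at the second TSS of Egr1 held it, 320 bases before that TSS. Other forms of the ETS site were not searched.

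Sequences of 2 genes with wide peaks are shown to set beside those above: Btg2, with the full cAMP response element, and Atf3 at its marked TSS, which has neither that element nor a CArG box. They are chr1:134079141-134079440 (−) for Btg2 and chr1:191183361-191183660 (−) for Atf3, and capitals also mark TGACGTCA.
Btg2: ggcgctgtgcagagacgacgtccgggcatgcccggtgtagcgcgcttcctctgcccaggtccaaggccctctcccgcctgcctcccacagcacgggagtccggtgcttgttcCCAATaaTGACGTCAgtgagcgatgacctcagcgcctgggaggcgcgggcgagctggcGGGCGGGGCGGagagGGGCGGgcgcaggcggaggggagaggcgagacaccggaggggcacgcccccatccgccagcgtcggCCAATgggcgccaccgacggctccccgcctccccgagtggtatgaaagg
Atf3: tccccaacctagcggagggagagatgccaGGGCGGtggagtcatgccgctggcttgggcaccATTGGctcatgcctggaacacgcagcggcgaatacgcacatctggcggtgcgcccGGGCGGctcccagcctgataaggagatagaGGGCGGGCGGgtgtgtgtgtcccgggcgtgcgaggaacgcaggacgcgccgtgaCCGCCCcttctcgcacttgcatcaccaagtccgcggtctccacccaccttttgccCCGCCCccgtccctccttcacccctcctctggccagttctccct
In Btg2 the element begins 201 bases before the TSS, with a CCAAT match just before it and 3 GGGCGG matches after it, beginning at 150, 145 and 135 bases. The Atf3 stretch holds 6 GGGCGG matches on both strands, including 2 that overlap, at 173 and 169 bases, and no TATAAA.

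Relatives and other early genes were also a mixture of marked and unmarked genes. Of the 6 other genes of the AP-1 family, Fosl2 (4011 bp) and Jdp2 (4691 bp) were marked, and Fosl1, Batf, Batf2 and Batf3 were not. Of the EGR family, Egr3 and Egr4 were unmarked, whereas Nab1 (1185 bp) and Nab2 (6057 bp), which encode corepressors of EGR proteins, were marked. Egr1 was thus the only one of the 4 EGR genes with a marked promoter. Of 14 relatives of Ier2, Btg2 and Atf3, 11 were marked, with Atf1 the widest (41582 bp) and Ier5l, Btg4 and Atf4 unmarked.

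Of 28 other immediate early genes, 24 were marked (85.7%), with a median width of 7598 bp. The widest peak was that of Klf2 (50763 bp), which is also part of the pluripotency network, and Arc, Nr4a3, Dusp5 and Npas4 were unmarked. Over these 4 lists together, 39 of 52 genes were marked (75.0%), beside 43.6% of all genes and 51.0% of protein-coding genes. The median width was 4985 bp, and the median number of peaks within 50 kb was 3. All 12 genes of the signalling pathway upstream were marked, among them Srf, Elk1, Elk4 and Creb1, with a median width of 2833 bp and Elk3 the widest (19925 bp). For this call 1 marked TSS was enough, and Crem had only 5 of its 21 TSSs marked. The reference TSSs of Mrtfa and Mrtfb lay 84.8 and 12.8 kb from the nearest peak.

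**Figure D5:**
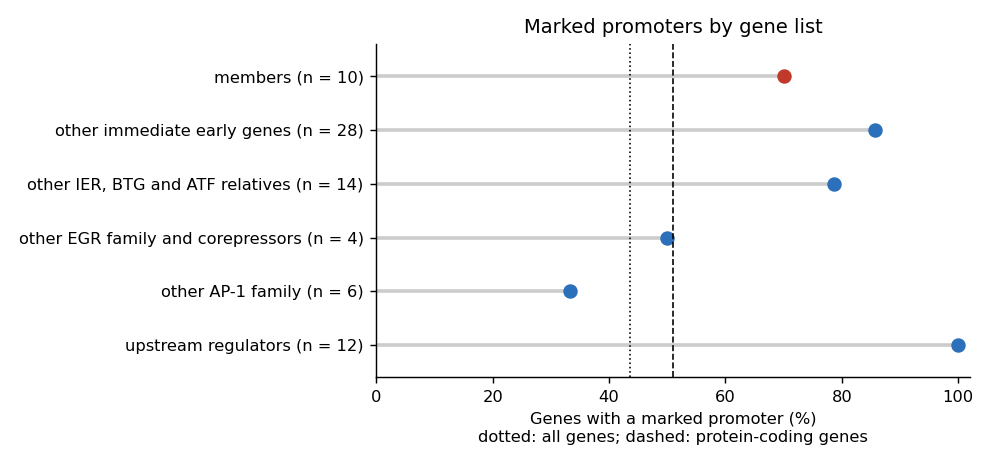
Share of genes with a marked promoter (x axis, percent) in the 10 immediate early genes (red) and in 5 lists of relatives and regulators (blue), with the number of genes beside each name; the dotted line is all genes (43.6%) and the dashed line protein-coding genes (51.0%). The AP-1 relatives lie lowest, with 2 of 6, and the upstream regulators highest, with 12 of 12. A gene counts as marked where any of its annotated TSSs is.

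Markers of the cell type were looked up in the same way. Of 10 embryonic stem cell markers 9 were marked, beside 43.6% of all genes and 51.0% of protein-coding genes, and Klf4 was not. The median width was 23678 bp, and Tfcp2l1 had the widest peak (71785 bp). Of 8 fibroblast markers, Pdgfrb (21497 bp) and Twist1 (476 bp) were marked, and of 8 markers of differentiated lineages Gata4 (1233 bp) and Gata6 (2607 bp). The widest promoter peak of the 10 immediate early genes, 11347 bp at Ier2, was narrower than the median of the stem cell markers.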

How the data were processed

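H3K27ac ChIP-seq was performed in 6 samples of mESCs, 2 replicates each of control, NVP-2 and ActD. The authors trimmed reads with Cutadapt, aligned them with bwa meme to mm10 and the human genome together, removed duplicates (Picard) and poorly mapped reads (samtools), called peaks with LanceOtron, merged those within 2 kb (Bedtools) and filtered them by height after input subtraction and by distance to ATAC-seq summits. The deposited list, pooled over both control replicates, gives 22973 peaks as start and end positions in mm10, with no score, count or height. A promoter without a listed peak may have had signal below these thresholds, and depth and replicate error cannot be read from the list.

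Peaks were compared with GENCODE release M21 on GRCm38, an earlier release than that of the study, using 67283 transcripts of the types protein_coding and lincRNA. The reference TSS was that of the APPRIS principal isoform, then the best supported, then the longest. Overlaps of at least 1 bp counted. Sequences were read from the RefSeq copy of GRCm38. The members and all 8 gene lists (90 genes, all found in the annotation) were chosen with earlier results of these data known. Named were the 10 genes, genes at or in which a peak within 50 kb lay, and some of those with a TSS there. Of each list, the marked genes were named where at most 5, the unmarked genes where at most 5, and the one with the widest promoter peak. Regulators named as examples, the TSS neighbours without a peak, and Sik3, were chosen after their values were seen. Alternatives were other promoter windows, isoforms, gene and transcript types, minimum widths, overlaps and distances. The functions for promoter overlap, peak counts, covered bases and motifs were tested on simulated data. Analyses used Python 3.11.15 (pandas 2.3.3, numpy 2.4.6, scipy 1.17.1), with figures from matplotlib 3.10.9.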

Additional observations from a re-analysis of the deposited data

How the results depend on the processing

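The number of marked promoters was 7 with windows of 500 bp or 2 kb on either side, with the TSS base alone, with protein-coding transcripts, with peaks of at least 1 kb, with overlaps of at least 500 bp and with transcripts of every type, the last chosen after seeing the data. It was 6 with the longest isoform alone, where the value for Atf3 went from 1 to 0. Over the settings that use all genes, the share of genes marked ranged from 39.0% to 44.6%, and it was 51.0% of the protein-coding genes. The median number of peaks within 50 kb was 4 and became 2 within 25 kb, 7.50 within 100 kb and 1.50 when peaks at any TSS were left out; over all genes the medians were 1 within 25 kb and 3 within 100 kb. The median width of 8408 bp became 6226 bp (n = 6) with the longest isoform and 6104 bp (n = 6) without the peak that Ier2 shares. No paired analysis was possible because the list pools both control replicates, and for the same reason no replicate could be left out. The list limits every statement to presence and width: a difference in height, or a weak peak that failed a threshold, was not detectable.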

Other observations

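The immediate early genes were set beside all CpG-rich promoters. With limits of at least 0.6 for the CpG ratio and 55% for the GC content, set after the values of the 10 genes were seen, 6780 protein-coding genes had a CpG-rich window, of which 5560 (82.0%) had a marked promoter and 1220 (18.0%) did not. Of the other 15062 protein-coding genes with a window, 37.1% were marked. Of the 10 immediate early genes, 7 had a CpG-rich window at the reference TSS, of which 4 were marked (Fos, Jun, Jund and Btg2) and 3 were not (Fosb, Junb and Egr2). The windows of Egr1, Atf3 and Ier2 at the reference TSS fell outside the limits. The reference TSS of Atf3 is itself unmarked, and the windows at its marked TSS (61.8% GC, ratio 0.67) and at the second TSS of Egr1 (68.0% GC, ratio 0.80), which is also marked, lay inside them. Junb, with a ratio of 0.61, lay just inside the limit.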
